A study of Mus musculus with 9 samples.

Results

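Cycling nuclei were studied in the ventricular tissue of mouse hearts after ischemia and reperfusion (I/R), profiled by single-nucleus RNA-seq, in which each barcode holds the RNA of 1 nucleus. A nucleus was counted as cycling when at least 3 of 6 genes of replication and mitosis (Top2a, Mki67, Knl1, Neil3, Cenpe and Kif11) had at least 1 unique molecular identifier (UMI, a counted RNA molecule) in it. This rule selected 761 of 49171 nuclei (1.55%) over 9 libraries, each from 1 C57BL/6 mouse that was 8 weeks old at the start. The 3 sham mice had the needle passed at the left anterior descending artery but no ligation, the 3 I/R mice had the artery ligated for 30 min and reperfused for 24 h, and the 3 SBP mice had the same I/R surgery after daily gavage of Shexiang Baoxin Pill, a Chinese herbal preparation also sold as MUSKARDIA, for 7 days. Sham and I/R mice were gavaged with vehicle for the same 7 days, and tissue of all 9 hearts was taken from below the ligation site. No group received the pill without I/R, so its values are described only on top of the injury.

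A cell that divides first copies its DNA in S phase, from origins licensed beforehand by loading of the MCM helicase. It then separates the copies in mitosis with condensins, kinetochores, spindle motors and the anaphase-promoting complex (APC/C). Transcription of these genes comes in 2 waves, an E2F-driven wave for replication and a later wave through MYB, FOXM1 and the DREAM complex for mitosis. In the adult heart most cardiomyocytes have left the cycle, whereas fibroblasts, endothelial cells and macrophages can re-enter it after injury. Fibroblasts that divide in an infarct are known as a source of the cells that lay down scar matrix, and tissue macrophages of the heart renew themselves in part by division in place.

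The 6 genes of the rule act at different steps. Top2a (chromosome 11, 98992947 to 99024199 in GRCm38) encodes the topoisomerase that untangles replicated DNA, and Mki67 (chromosome 7, 135689784 to 135716450) the Ki-67 protein that coats mitotic chromosomes. Knl1 (chromosome 2, 119047119 to 119110497) and Cenpe (chromosome 3, 135212563 to 135273540) encode a kinetochore scaffold and a kinetochore motor. Kif11 (chromosome 19, 37376382 to 37421863) encodes the motor that pushes the spindle poles apart, and Neil3 (chromosome 8, 53586867 to 53639065) a DNA glycosylase that unhooks cross-links at replication forks. Many promoters of the mitotic wave are known to hold a cell cycle homology region (CHR, letters TTTGAA or TTCGAA), bound by DREAM, and CCAAT boxes, bound by NF-Y. Promoter stretches of 3 rule genes are shown because they hold both kinds of letters upstream of the start. They come from RefSeq on GRCm38.p6, run 5′ to 3′ on the gene's strand, and carry the CHR letters and CCAAT (or their reverse complements TTCAAA and ATTGG) in capitals, on chr11:99024200-99024319 (minus strand), chr7:135716451-135716570 (minus strand) and chr19:37376262-37376381 (plus strand).
Top2a, 130 to 11 bases before the start: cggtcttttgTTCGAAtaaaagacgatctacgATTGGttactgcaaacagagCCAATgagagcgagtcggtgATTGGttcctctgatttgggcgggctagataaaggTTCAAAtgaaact
Mki67, 191 to 72 bases before the start: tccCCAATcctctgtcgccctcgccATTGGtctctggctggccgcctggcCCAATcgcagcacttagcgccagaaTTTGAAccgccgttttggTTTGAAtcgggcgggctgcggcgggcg
Kif11, 120 to 1 bases before the start: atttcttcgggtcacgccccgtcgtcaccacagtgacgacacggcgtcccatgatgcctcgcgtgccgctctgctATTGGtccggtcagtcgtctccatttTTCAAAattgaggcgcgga

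Within the 300 bases tested per gene (250 before to 50 after the first listed start, both strands), CHR letters occurred in 5 of 6 rule genes and in 19.4% of all 27025 promoters. Knl1 had its CHR letters after the start, Neil3 had them 202 to 197 bases before it, and Cenpe had only CCAAT. The CCAAT letters occurred in 4 of 6 rule genes and in 37.9% of all promoters. Of the cell cycle lists described below, spindle motors and microtubule proteins held CHR letters in 21 of 25 promoters (84.0%), condensin and cohesin genes in 9 of 17 (52.9%), cyclins and kinases in 12 of 23 (52.2%), and centromere genes in 12 of 26 (46.2%). Replication genes held them in 7 of 35, close to the share of all promoters, and a list of CDK inhibitors and antiproliferative genes in 2 of 10. Both CHR and CCAAT were present in 16 of 25 spindle gene promoters (64.0%) against 7.70% of all promoters. These are matches of letters, and binding was not measured.

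The libraries held 4576 to 6418 nuclei and 10329520 to 18205985 UMIs each, with a median of 1540 to 2031 UMIs per nucleus. The lowest medians, 1540 and 1585, were those of sham replicates 1 and 2. In the study's quality control the sham libraries also stood apart from all injured ones before read filtering. They had fewer low quality reads, more reads with many unread bases and a lower GC content. This split runs along the same line as sham against injury, and its part in the comparisons with sham was not tested. Of 48881 distinct barcodes, 290 occurred in 2 libraries. The study states a number of cells after its quality control that differs from the 49171 barcodes used here. No doublets were removed here, and nuclei with markers of 2 or more lineages are counted separately below. Cycling nuclei were deeper than the rest: their median UMI count was 2019 to 6083 per sample, against 1538 to 2017 in the other nuclei.

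Most cycling nuclei carried each of the rule genes. Top2a was present in 672 of the 761 cycling nuclei (88.3%), Knl1 in 658 (86.5%), Mki67 in 557 (73.2%), Neil3 in 530 (69.6%), Kif11 in 497 (65.3%) and Cenpe in 476 (62.5%). Among other nuclei the same genes had a UMI in at most 3.46% of a sample (Mki67), and Neil3 in at most 1.45%. These shares describe the rule and carry no test. Of the cycling nuclei, 199 carried exactly 3 rule genes, 193 carried 4, 193 carried 5 and 176 carried all 6. Just outside the rule lay 288 nuclei with exactly 2 rule genes, followed by 2257 with 1 and 45865 with none.

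Genes that the rule did not use followed the number of rule genes. The summed level of 81 measured genes of mitosis (centromere, spindle, cytokinesis and APC/C lists, rule genes left out) was 9.40 UMIs per 10000 UMIs in nuclei with no rule gene, 13.8 with 1 and 48.0 with 2. It was 82.5, 105, 115 and 126 with 3, 4, 5 and 6 rule genes. The 43 replication genes had another shape. Their level was 3.94, 7.88 and 29.5 with none, 1 and 2 rule genes, reached 36.9 with exactly 3, and was lower again at 34.5, 27.5 and 20.6 with 4, 5 and 6. Nuclei with more rule genes thus had more RNA of mitosis genes and, from 3 on, less RNA of replication genes per UMI. Median depth also moved along this axis, from 1784 UMIs with no rule gene through 2269 with 2 and 2634 with 3 to 6049 with 6, and its part in these levels was not tested.

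**Figure D1:**
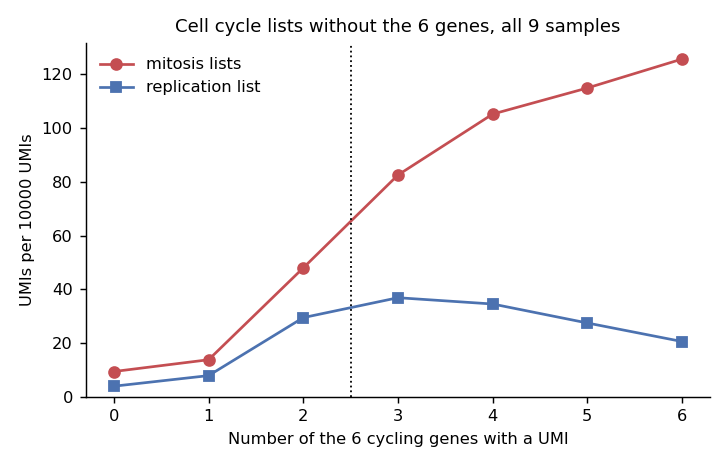
Summed level of the mitosis and replication lists (UMIs per 10000 UMIs, vertical axis) in nuclei grouped by the number of rule genes present (horizontal axis, 0 to 6), all 9 samples pooled, with the threshold of 3 marked. The mitosis list is higher at each step, to 126 with 6 rule genes, while the replication list is highest at 36.9 with exactly 3.

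Cycling nuclei made up a larger share of the heart after I/R than after sham surgery. In sham hearts they were 11 of 4576, 38 of 5919 and 11 of 5531 nuclei (0.240, 0.642 and 0.199%, with 95% Wilson intervals of 0.134 to 0.430, 0.468 to 0.880 and 0.111 to 0.356%, which cover counting error only). In I/R hearts they were 280 of 6418, 100 of 5184 and 63 of 5672 (4.36, 1.93 and 1.11%, intervals 3.89 to 4.89, 1.59 to 2.34 and 0.869 to 1.42%). In SBP hearts they were 83 of 5067, 131 of 5680 and 44 of 5124 (1.64, 2.31 and 0.859%, intervals 1.32 to 2.03, 1.95 to 2.73 and 0.640 to 1.15%). Every I/R and SBP heart lay above every sham heart, while I/R and SBP hearts overlapped. Within I/R the first heart alone gave 280 of 443 cycling nuclei, and within sham the second heart gave 38 of 60.

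**Figure D2:**
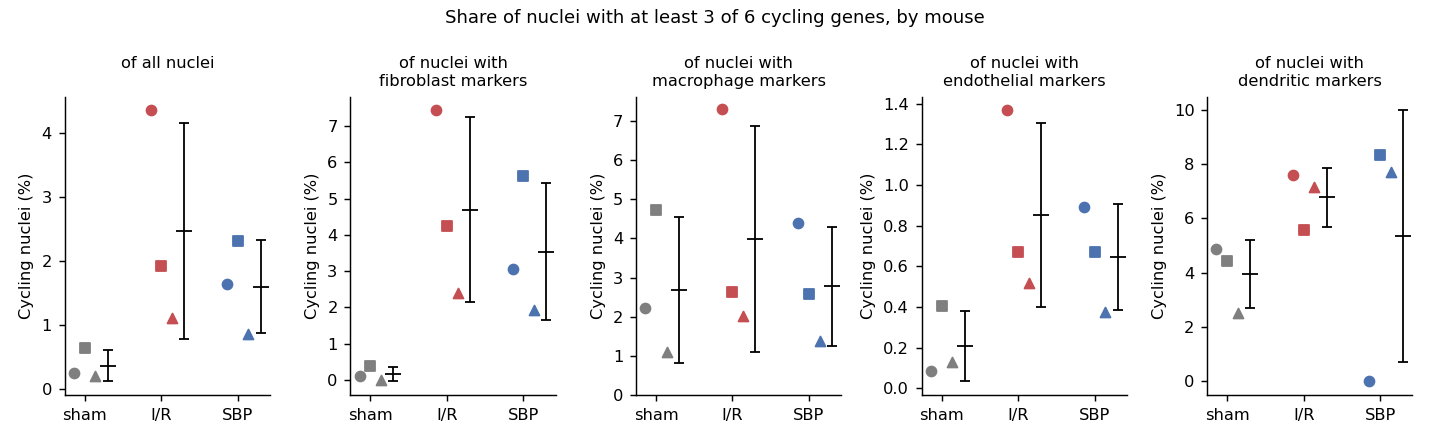
Cycling nuclei as a percentage of all nuclei and of nuclei with fibroblast, macrophage, endothelial or dendritic cell markers (1 panel each), 1 point per mouse (circle, square and triangle for replicates 1, 2 and 3), with the group mean and SD as a bar beside the points. In the first panel the 3 sham mice lie at 0.240, 0.642 and 0.199%, below the I/R mice (1.11 to 4.36%) and the SBP mice (0.859 to 2.31%), which overlap each other.

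Sham hearts averaged 0.360 ± 0.245%, I/R hearts 2.47 ± 1.69% and SBP hearts 1.60 ± 0.725% (SD, n = 3 mice each). On the log2 scale the share was 2.71 higher in I/R than in sham (SE 0.667, 95% interval 1.18 to 4.23, limma adjusted p = 0.0150 over a table of 14 shares), and the exact two-sided permutation test gave 0.1, the smallest p that 3 against 3 mice allow. In this contrast 4 of the 14 shares passed the test (28.6%). The share was also higher in SBP than in sham, by 2.20 (0.679 to 3.73, limma adjusted p = 0.0466), with 3 of 14 shares called (21.4%). Between SBP and I/R the log2 difference was -0.51 with an interval of -2.03 to 1.02 (limma adjusted p = 0.952), wide enough to hold both a 4-fold fall and a 2-fold rise. None of the 14 shares was called between SBP and I/R (0%), none had an unadjusted limma p under 0.05 (the smallest was 0.155), and the smallest exact permutation p was 0.3. The comparisons of I/R and of SBP with sham share the 3 sham hearts and are not independent. Both also run along the split in raw read quality between sham and injured libraries given above.

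Depth bears on these shares, since a deeper nucleus can show more rule genes. When every nucleus with at least 1000 UMIs was thinned to 1000, the sham hearts had 0.0803, 0.525 and 0.142% cycling nuclei, the I/R hearts 1.86, 0.817 and 0.366% and the SBP hearts 0.658, 0.813 and 0.222%, so that the groups overlapped. The difference between I/R and sham was then 2.08 (limma adjusted p = 0.168) and that between SBP and sham 1.36 (limma adjusted p = 0.627). The I/R call was also lost without sham replicate 1, sham replicate 3 or I/R replicate 1, at limma adjusted p values of 0.0644, 0.0629 and 0.0514. The SBP call was lost with at least 4 rule genes (limma adjusted p = 0.0651) and without sham replicate 1, sham replicate 3, I/R replicate 2, SBP replicate 1 or SBP replicate 2 (limma adjusted p from 0.0772 to 0.174).

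The lineage of a cycling nucleus was read from at least 2 markers of 1 of 4 cell types. Fibroblast markers (Col1a2, Dcn, Pdgfra and Fbln1) were carried by 443 of the 761 cycling nuclei (58.2%), macrophage markers (Csf1r, Mrc1, Adgre1 and Gpnmb) by 285 (37.5%), endothelial markers (Pecam1, Cdh5, Ptprb and Flt1) by 70 and dendritic cell markers (Flt3, Wdfy4 and Ciita) by 37. Among the other nuclei the shares were 28.6, 14.8, 25.8 and 1.25%. None of the 4 sets was carried by 72 cycling nuclei (9.46%). At least 2 of fibroblast, macrophage and endothelial sets were carried by 116 cycling nuclei (15.2%) against 6.17% of other nuclei, with fibroblast and macrophage markers together in 71 (9.33% against 1.92%). Such nuclei can be doublets or hold free RNA, which cannot be told apart here.

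The mix of lineages differed between sham and injured hearts. Fibroblast markers were carried by 1 of 11, 5 of 38 and 0 of 11 cycling nuclei in sham (9.09, 13.2 and 0%). In I/R they were carried by 146 of 280, 68 of 100 and 47 of 63 (52.1, 68.0 and 74.6%), and in SBP by 50 of 83, 91 of 131 and 35 of 44 (60.2, 69.5 and 79.5%). Macrophage markers showed the other order, at 6 of 11, 26 of 38 and 7 of 11 in sham (54.5, 68.4 and 63.6%), 145, 27 and 17 nuclei in I/R (51.8, 27.0 and 27.0%) and 20, 30 and 7 nuclei in SBP (24.1, 22.9 and 15.9%). In sham hearts most of the few cycling nuclei thus carried macrophage markers, and in all 6 injured hearts fibroblast markers were the more common. The counts were near equal in I/R replicate 1, the heart with most cycling nuclei. There 146 carried fibroblast and 145 macrophage markers, and without nuclei of 2 or more lineages 98 and 98 did. The share of cycling nuclei with macrophage markers was lower in every SBP than in every I/R heart. Shares of the cycling nuclei were not tested. Endothelial markers were carried by 1, 7 and 2 cycling nuclei in sham, 16, 8 and 8 in I/R and 15, 8 and 5 in SBP. Dendritic cell markers were carried by 2, 4 and 3 in sham, 13, 1 and 2 in I/R and 0, 9 and 3 in SBP.

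**Figure D3:**
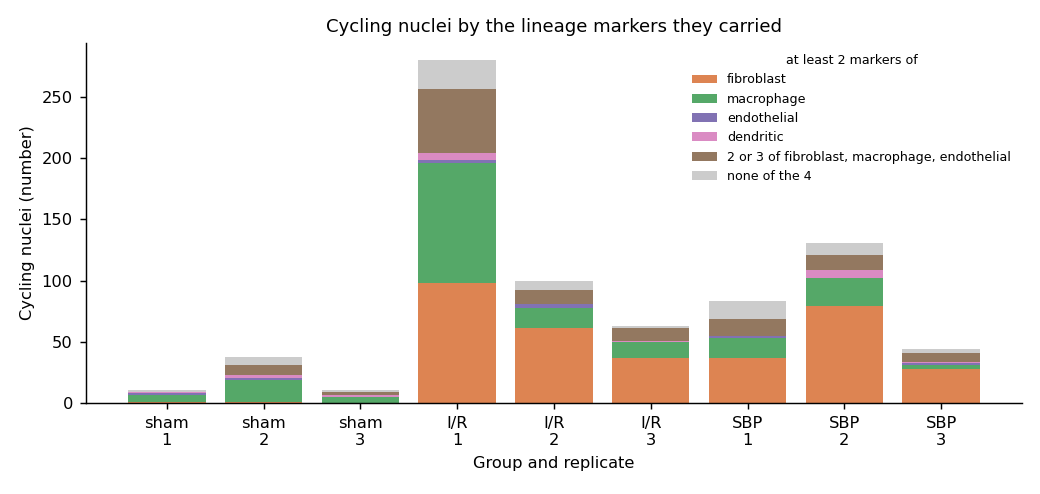
Number of cycling nuclei (stacked bars) per mouse by the lineage markers they carried, with nuclei of 2 or 3 of the fibroblast, macrophage and endothelial sets in a segment of their own. The sham bars reach 11, 38 and 11 nuclei with at most 1 nucleus of fibroblast markers without macrophage or endothelial markers. Such nuclei, which could also carry dendritic cell markers, number 28 to 98 in each of the 6 injured mice.

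Cardiomyocyte, smooth muscle and lymphocyte markers were checked as well. At least 2 cardiomyocyte markers (of Ttn, Ryr2, Myh6, Tnnt2, Actn2 and Mybpc3) were found in 86.9% of cycling and 87.5% of other nuclei, so that this set did not tell cell types apart, and where this RNA came from was not measured. No cycling nucleus (0 of 761) had a summed cardiomyocyte level above the 99th percentile of other nuclei of the fibroblast class. This level was passed by only 2.68 to 10.9% of the other nuclei with none of the 4 marker sets in a sample, so the count can miss cardiomyocyte nuclei. Smooth muscle and pericyte markers were carried by 139 cycling nuclei (18.3% against 6.33% of others) and monocyte markers by 110 (14.5% against 3.96%). Only 10 of the 139 and 9 of the 110 carried none of the 4 marker sets. In the fibroblast class of injured hearts, members of both sets went apart in cycling over other nuclei. Pdgfrb and Notch3 had ratios of 2.32 and 2.10, against 0.828 for Rgs5, 0.170 for Abcc9, 0.307 for Cspg4 and 0.111 for Myh11. Vcan had 2.69 and Plac8 1.04, against 0.448 for Ccr2, 0.674 for Cd14, 0.733 for Ly6c2 and 0.805 for Chil3. T cell markers were carried by 6 cycling nuclei and B cell markers by 0 of 761.

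Cycling fibroblast nuclei were rare in sham hearts and common after I/R. Of the nuclei with fibroblast markers, 0.0993, 0.392 and 0% were cycling in the 3 sham hearts, where replicate 3 had 0 of 1404, which allows up to 0.214% by counting error. In I/R hearts the shares were 7.44, 4.24 and 2.40%, and in SBP hearts 3.06, 5.63 and 1.93%. All 6 injured hearts lay above all 3 sham hearts, and the groups of injured hearts overlapped. The mean was 0.164 ± 0.204% in sham and 4.69 ± 2.55% in I/R (SD, n = 3), a ratio of means of 28.7. With 0.5 nuclei added to each count, the log2 difference was 5.01 (SE 0.893, 95% interval 2.98 to 7.05, limma adjusted p = 0.00285, exact permutation p = 0.1). In SBP the mean was 3.54 ± 1.90%, a log2 difference from sham of 4.62 (2.58 to 6.66, limma adjusted p = 0.00492). Against I/R it was -0.39 (-2.43 to 1.65, limma adjusted p = 0.952), and a difference was not detectable with 3 mice a group.

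Of the 6 cycling nuclei with fibroblast markers in all of sham, the 1 in sham replicate 1 also held most dendritic cell marker UMIs of the cycling nuclei there. The fibroblast difference rested on these 6 nuclei, and its size moved with single sham hearts. It lay between 4.07 and 5.87 when each mouse was left out in turn, the lowest without sham replicate 3 and the highest without sham replicate 2. It was 4.06 after thinning to 1000 UMIs (limma adjusted p = 0.00205). The share of other nuclei with fibroblast markers differed less, at 23.0 ± 2.12% in sham and 30.6 ± 2.83% in I/R, a log2 difference of 0.41 (limma adjusted p = 0.346).

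The cycling share of macrophage nuclei overlapped between all groups. Sham hearts had 2.21, 4.74 and 1.10%, I/R hearts 7.30, 2.64 and 2.02% and SBP hearts 4.40, 2.57 and 1.38%. Sham replicate 3 was lower than any I/R heart, and the highest value was I/R replicate 1. The log2 difference between I/R and sham was 0.53 with an interval of -1.08 to 2.14 (limma adjusted p = 0.511, exact permutation p = 0.6). Between SBP and sham it was 0.12 (limma adjusted p = 0.872). More of all other nuclei carried macrophage markers after I/R, 20.8 ± 7.19% against 8.68 ± 2.81% in sham, but this share also missed the threshold (1.26, limma adjusted p = 0.0683).

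Endothelial nuclei were cycling at 0.0870, 0.404 and 0.129% in sham, 1.37, 0.670 and 0.519% in I/R and 0.893, 0.670 and 0.374% in SBP. The difference between I/R and sham was 1.98 (0.616 to 3.34, limma adjusted p = 0.0341), with no overlap between the groups. The call was lost without sham replicate 1, sham replicate 3, I/R replicate 1, I/R replicate 2 or SBP replicate 2 (limma adjusted p from 0.0540 to 0.145), and after thinning to 1000 UMIs the difference was 0.050 (limma adjusted p = 0.934). Only 12 of the 70 cycling nuclei with endothelial markers carried no fibroblast or macrophage markers, 3 of them from sham, 5 from I/R and 4 from SBP hearts, and without nuclei of 2 or more lineages the difference was 0.78 and not called. Dendritic nuclei were few but had a high cycling share in each group, 2 of 41, 4 of 90 and 3 of 119 in sham (4.88, 4.44 and 2.52%) and 13 of 171, 1 of 18 and 2 of 28 in I/R (7.60, 5.56 and 7.14%). In SBP they were 0 of 27, which allows up to 11.1%, 9 of 108 and 3 of 39 (8.33 and 7.69%). Neither contrast with sham passed the test for dendritic nuclei (log2 difference of I/R over sham 0.90, limma adjusted p = 0.334).

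The change of the cycling share differed between the lineages tested. This test, which was chosen after the shares had been seen, compared the log2 difference of I/R over sham between lineages of the same mice, over 6 pairs of lineages. Fibroblast nuclei exceeded macrophage nuclei by 4.49 (95% interval 3.05 to 5.92, limma adjusted p = 0.00013), endothelial nuclei by 3.04 (1.47 to 4.61, limma adjusted p = 0.00254) and dendritic nuclei by 4.11 (2.10 to 6.12, limma adjusted p = 0.00251). All 3 held when any mouse was left out. Nuclei with smooth muscle and pericyte markers were not part of this test. They were cycling at 0.165 to 0.645% in sham, 4.06 to 15.3% in I/R and 2.60 to 8.38% in SBP. Most of these cycling nuclei also carried a marker set of the lineages tested. Between SBP and I/R no pair passed the test (limma adjusted p = 0.976 for each pair, unadjusted p from 0.729).

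In RNA content, cycling nuclei were set apart by the mitotic program, in all nuclei pooled and in the fibroblast and macrophage classes, where this was compared. Of 4676 genes with at least 50 CPM (UMIs of a gene scaled to a total of 1000000), in cycling nuclei, the 20 with the largest ratio to other nuclei included 4 rule genes and 10 members of the cell cycle lists. Ankle1, an endonuclease that acts on chromatin bridges, had 96.1 CPM in cycling and 0.622 CPM in other nuclei, a ratio of 155 (mean of 7 samples with at least 20 cycling nuclei). Iqgap3, a scaffold of cytokinesis, had a ratio of 118, the helicase Pif1 113, the CDK1-activating phosphatase Cdc25c 99.4, the cohesin acetyltransferase Esco2 103 and the central spindle motor Kif23 98.1. These ratios follow from how the nuclei were chosen and carry no test.

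By list, the median ratio of cycling over other nuclei was 53.8 for 29 spindle genes, 47.8 for 10 cytokinesis genes, 19.2 for 30 centromere genes and 17.9 for 32 cyclins and kinases. It was 10.4 for 30 repair genes, 7.07 for 23 condensin and cohesin genes, 6.12 for 43 replication genes and 5.77 for 17 E2F, MYB and FOXM1 regulators, against 1.20 over the 5286 genes with at least 50 CPM in either class. The list of CDK inhibitors, which also holds the p53-induced or antiproliferative genes Trp53inp1, Btg2, Gas1 and Ccng1, stood near the background at 1.27. Of its 12 genes, Cdkn3, itself a gene of the mitotic wave, and the CDK4 and CDK6 inhibitors Cdkn2c and Cdkn2d were higher in every sample, and Trp53inp1 was lower in every sample. All 29 spindle genes and 42 of 43 replication genes were higher in cycling nuclei in 7 of 7 samples, beside 1492 of 5286 genes at 50 CPM (28.2%).

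The level of the cycle programs in cycling nuclei varied most among the sham hearts and lay closer together in I/R and SBP hearts. Mitosis genes summed to 73.1, 146 and 157 UMIs per 10000 in sham, 115, 118 and 111 in I/R and 103, 103 and 106 in SBP. In sham replicate 1, which was lowest, 1 nucleus gave 23601 of the 48033 UMIs of the 11 cycling nuclei. Replication genes summed to 13.1, 35.9 and 33.2 in sham, 28.9, 26.0 and 27.0 in I/R and 26.0, 29.3 and 29.2 in SBP, where the groups overlapped. The 3 SBP hearts lay below the 3 I/R hearts for mitosis genes. Of the 11 cycle lists, 6 lay lower in all SBP than in all I/R hearts and 0 lay higher. In the fibroblast class 3 of 11 lay lower and 0 higher. In the macrophage class 0 of 11 lay lower and 0 higher, on sums of as few as 3 nuclei. Mitosis genes of that class averaged 109 UMIs per 10000 in I/R and 117 in SBP, with overlap. Of single genes, 4.76% of 7836 lay lower in all SBP than in all I/R hearts and 5.31% higher, and 4.6% and 5.68% of 5647 in the fibroblast class, though single genes are no like background for sums over a list. Spindle genes had 43.3 to 47.2 UMIs per 10000 in I/R and 38.3 to 40.0 in SBP, and condensin and cohesin genes 33.7 to 34.8 and 30.5 to 31.3. The gaps were small, and gene by gene no member passed the test (below).

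Cycling nuclei of the fibroblast class (fibroblast markers and fewer than 2 macrophage or endothelial markers) were compared with the other nuclei of that class in the 3 I/R and 3 SBP hearts. Of 11 injury genes of fibroblasts, 8 were higher in cycling nuclei in 6 of 6 hearts, beside 1730 of 5077 genes at 50 CPM (34.1%). Tnc, the matrix protein tenascin C, was at 1036, 1145 and 1305 CPM in cycling nuclei of I/R and 1125, 1592 and 4693 CPM in SBP, and at 129 to 346 CPM in the other fibroblast nuclei of these hearts, a ratio of 7.17. Cthrc1, a secreted protein of matrix-forming fibroblasts, averaged 261 CPM against 35.4 CPM (ratio 7.36), and Postn, or periostin, 940 against 176 CPM (5.36). Runx1, a transcription factor of injury-activated cells, had a ratio of 4.61, Fn1, fibronectin, 4.15, Timp1, an inhibitor of metalloproteinases, 3.63, the collagen cross-linking oxidase Lox 2.56, and the short-chain collagen gene Col8a1 2.48. Acta2, Thbs1 and Cilp were higher in 4 of 6 hearts each.

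**Figure D4:**
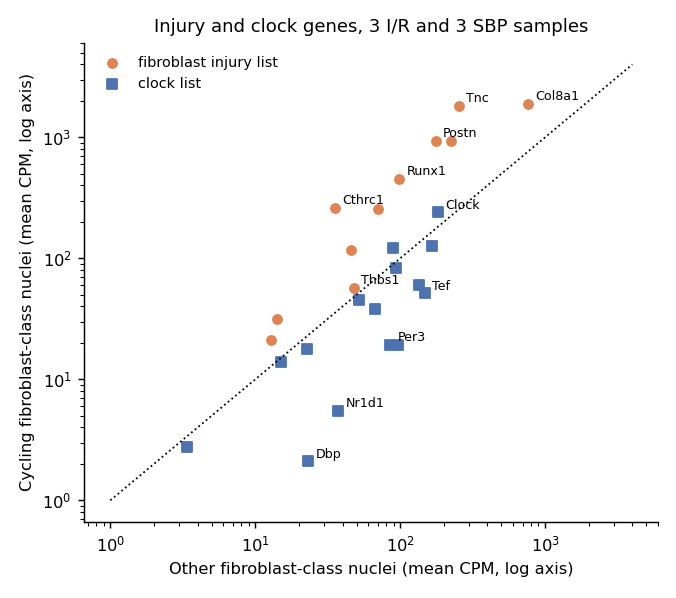
Mean CPM in cycling (vertical log axis) against other nuclei (horizontal log axis) of the fibroblast class over 3 I/R and 3 SBP mice, 1 point per gene of the injury list (circles) and the clock list (squares), with the line of equal levels dotted. All injury genes lie above the line, Tnc at 1816 against 253 CPM, and Dbp, Nr1d1, Tef and Per3 lie below it, Dbp at 2.11 against 23.1 CPM.

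Some clock genes had lower levels in cycling fibroblast nuclei. Of 15 measured clock genes, 6 were lower in all 6 hearts, beside 1123 of 5077 genes (22.1%). That background holds genes with at least 50 CPM in either class, which 10 of the 15 reached, and Dbp and Nr1d1 of the 6 did not. The transcription factors Dbp, Hlf and Tef, whose own genes are direct targets of the clock, had ratios of 0.0910 (2.11 against 23.1 CPM), 0.199 (19.1 against 96.2 CPM) and 0.346 (51.4 against 148 CPM). The repressors Nr1d1 and Nr1d2 had ratios of 0.146 and 0.452, and Per3 had 0.225. The counts behind Dbp and Nr1d1 were small, at 8 and 10 UMIs in all cycling nuclei of the class. Clock itself was higher in 6 of 6 hearts (ratio 1.33), and Arntl, its partner, in 5 of 6. The median ratio was 0.113 for the 6 cardiomyocyte markers, all lower in all 6 hearts, and 1.16 over the 5077 genes. Whether the lower cardiomyocyte RNA bears on the ratios given here was not tested. The time of day at which tissue was taken was not given in the sources used here. Of the cycle lists in the same comparison, Ccnd3, cyclin D3, was lower in all 6 hearts, at 221 against 564 CPM, as were the p53-induced Trp53inp1 (ratio 0.160) and the antiproliferative Btg2 (0.168). Cdkn2d, an inhibitor of CDK4 and CDK6, was higher in all 6 (2.98).

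Cycling nuclei of the macrophage class (macrophage markers and fewer than 2 fibroblast or endothelial markers) were compared in the same way in the 6 hearts with at least 10 of them, which were sham replicate 2, the 3 I/R hearts and SBP replicates 1 and 2. The same injury list had 0 of 11 members higher in all 6 hearts, beside 458 of 4879 genes at 50 CPM (9.39%), so that 0 of 11 lies near the background. Runx1 was already high in other macrophage nuclei (962 against 1181 CPM in cycling nuclei, ratio 1.23, higher in 5 of 6). Of 10 resident macrophage genes, 3 were lower in all 6 hearts, on 12, 9 and 80 UMIs in cycling nuclei. They were the folate receptor Folr2 (ratio 0.576), Timd4, a receptor for dying cells (0.462), and the selenium carrier Selenop (0.547). Only Selenop of these reached 50 CPM in either class, as did 8 of the 10 members, beside 412 of 4879 genes (8.44%) that were lower. So counted, the list lies near the background. Cell cycle genes again had the largest ratios, with Kif2c at 179, Troap at 149 and Kif14 at 128.

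Gene by gene, the cycling nuclei of each mouse were summed and compared with limma on log2(CPM + 1), where a gene was called at an adjusted p of at most 0.05 with an absolute log2 difference over 0.25. Only sham replicate 2, with 38 nuclei and 91607 UMIs, reached the 20 nuclei required, so this lone sham sum was assumed to vary like the other groups, p values against sham rest on 1 sham mouse, and 3 UMIs in it correspond to 32.7 CPM. Values from sums of at least 10 nuclei, which bring in all 9 hearts, are therefore given beside those against sham. The filter asked for a set level in 3 or more samples. With 1 sham sum, a gene high only in sham could not enter the fit, whereas one absent from sham could. The split into genes higher and lower than sham is partly set by this filter. Between I/R and sham 1798 of 7836 genes were called (22.9%), 1417 higher (18.1%) and 381 lower (4.86%). Of the called genes 448 had 0 UMIs in the sham sum and 1006 had 3 or fewer. With voom, a limma method that weights each value by its depth, 24 genes were called (0.306%), 9 higher and 15 lower, all of them also called above. With all 9 hearts 744 of 8110 genes were called (9.17%), 568 higher (7%) and 176 lower (2.17%), and 622 of them were shared with the 1798. Between SBP and sham 2120 genes were called (27.1%), 1567 higher and 553 lower, but 97 with voom (1.24%), 25 higher and 72 lower, and 1061 with all 9 hearts (13.1%), 743 higher and 318 lower. These sums pool lineages, and the shares with fibroblast, macrophage and dendritic cell markers differed between sham and injured hearts. The share of cycling nuclei with macrophage markers also did not overlap between I/R (27.0 to 51.8%) and SBP hearts (15.9 to 24.1%). A changed mix and a change within a lineage therefore cannot be told apart in these sums, against sham or between SBP and I/R.

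Fibroblast genes were among those that rose. The fibroblast markers also assigned the lineage, so their rise is no result apart from the counts of nuclei given above. The injury lists of fibroblasts and of macrophages share Fn1 and Thbs1, so their counts are not separate. All 4 fibroblast markers were called higher in cycling nuclei after I/R, as were 7 of 10 tested fibroblast injury genes and 6 of 11 macrophage injury genes, beside 18.1% of all genes. With all 9 hearts these counts were 2 of 4 (Col1a2 and Pdgfra), 6 of 10 and 6 of 11, beside 7%, and with voom 1 of 4, 0 of 10 and 0 of 11. The genes with the largest rises were at 0 UMIs in the sham sum, so they passed the filter only through the injured hearts. They were picked by size and were not called by voom, and their values are descriptions. Kif26b, a kinesin that acts in cell adhesion, averaged 843 CPM in I/R (408 to 1421), at least 25.7-fold above 3 UMIs. Pappa, a protease of IGF-binding proteins, was at least 13.5-fold, the PDGF receptor Pdgfra at least 11.7-fold, Gm6093 at least 9.24-fold, the fibrillar collagen Col27a1 at least 8.23-fold and the syntrophin Sntg1 at least 7.94-fold higher. With all 9 hearts Col27a1 missed the threshold (limma adjusted p = 0.0539) and the other 5 were called, where sham replicate 1 held 2 UMIs of Pappa and 2 of Pdgfra. Voom called 9 genes higher, among them the collagens Col1a2 (log2 difference 4.61), Col3a1 and Col5a2, fibrillin Fbn1 and the noncoding RNAs Meg3 and Airn. These 6 genes were also called with all 9 hearts, Col1a2 from 0, 126 and 0 CPM in sham to 2882, 2989 and 3507 CPM in I/R (limma adjusted p = 0.00749), and with log2 differences of Col3a1 at 5.50, Col5a2 at 5.76, Fbn1 at 3.71, Meg3 at 4.34 and Airn at 1.94.

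Antigen presentation genes were among those that fell. Of 6 tested, 5 were called lower, beside 4.86% of all genes, with all 9 hearts 6 of 8, beside 2.17%, and with voom 1 of 6. Of 7 tested resident macrophage genes none was called in either fit (2 of 7 at an unadjusted p under 0.05 in each). H2-Ab1, a chain of MHC class II, fell from 197 CPM in the sham sum to 15.8 ± 8.23 CPM in I/R (log2 difference -3.66, SE 0.568, limma adjusted p = 0.000563, voom adjusted p = 0.0137). H2-Aa (-4.46) and H2-Eb1 (-3.69), also of MHC class II, fell by the first method only. Serpinb8 (-3.90), an intracellular protease inhibitor, St3gal6 (-3.57), a sialyltransferase, and the myeloid factor Irf8 were called by both methods, and 9930111J21Rik2 (-4.58) by the first. All 7 of these genes were called with all 9 hearts, H2-Ab1 at -2.83 (limma adjusted p = 0.0131). In sham replicate 1, which enters only there, 1 nucleus of the fibroblast class gave 55 of the 84 UMIs of the antigen presentation list and 45 of the 56 UMIs of the dendritic cell markers. The dendritic cell markers Flt3, Wdfy4 and Ciita are also members of the antigen presentation list, so their counts and UMIs enter both. They were carried by 18.7 ± 8.38% of cycling nuclei in sham and 2.94 ± 1.83% in I/R (SD, n = 3, without overlap), and of the markers themselves 1 of 2 tested was called lower, Wdfy4 (-2.26), and 2 of 3 with all 9 hearts. These markers also assigned the dendritic lineage, so their fall is no result apart from the share of nuclei that carried them. The part of these nuclei in the fall of the list was not tested. The macrophage markers went apart, with the CSF1 receptor Csf1r lower (-2.13), though not with all 9 hearts (-1.13, limma adjusted p = 0.340), and Gpnmb, a glycoprotein of lipid-laden macrophages, at 0 UMIs in sham and 113 CPM in I/R.

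Cell cycle genes were called between I/R and sham in small numbers per list. Of 35 replication genes 1 rose and 2 fell, of 29 spindle genes 0 rose and 3 fell, of 26 centromere genes 0 changed, and of 17 E2F, MYB and FOXM1 regulators 2 rose and 3 fell, beside 18.1% of all genes that rose and 4.86% that fell. Of 22 condensin and cohesin genes 1 rose and 4 fell, of 9 nucleotide supply genes 2 rose and 1 fell, and of 10 APC/C genes 2 rose and 1 fell. With all 9 hearts 1 of 36 replication genes rose and 0 fell, 0 of 29 spindle genes rose and 1 fell, and 0 of 17 regulators and 0 of 22 condensin and cohesin genes were called, while 2 of 9 nucleotide supply and 1 of 10 APC/C genes rose, beside 7% of all genes that rose and 2.17% that fell. Medians of the lists lay between -0.95 (the list with CDK inhibitors, 5 tested, none called) and 0.54 (nucleotide supply, 9 tested), against 0.12 over all genes. With all 9 hearts the median of replication genes went from -0.26 to 0.39 and that of the regulators from -0.95 to 0.26, against 0.47 over all genes. Mybl2, the MYB protein of the mitotic wave, was called higher in I/R (2.44) from 1 UMI in the sham sum, and the E2F repressor E2f7 was called lower (-1.67), but with all 9 hearts they were at 1.47 and -0.43 and neither was called (limma adjusted p = 0.114 and 0.727). The rule genes were not read as results here.

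Between I/R and sham Kif23 was the only member of the cycle lists called by voom. Its level in the cycling sum was 829 CPM in sham replicate 2, 188 ± 23.7 CPM in I/R and 188 CPM on average in SBP (I/R against sham log2 difference -2.15, SE 0.308, limma adjusted p = 0.000331, voom adjusted p = 0.0137). With all 9 hearts the difference was -1.51 (limma adjusted p = 0.0189). Kif23 (chromosome 9, 61917277 to 61946810) encodes a motor of the central spindle needed for cytokinesis. In cycling nuclei of the macrophage class it was at 933, 1004 and 661 CPM in sham, 357, 142 and 264 CPM in I/R and 348, 276 and 284 CPM in SBP, with every sham heart above every injured heart. These sums are small, with 13, 41 and 12 UMIs of Kif23 from 6, 18 and 5 nuclei in sham and 3 UMIs from 3 nuclei in SBP replicate 3. Macrophage nuclei that were not cycling showed the same order at a lower level, 26.7, 30.7 and 19.0 CPM in sham, 7.00, 5.21 and 3.83 CPM in I/R and 2.84, 7.03 and 5.39 CPM in SBP. In cycling fibroblast nuclei of injured hearts Kif23 was at 115 to 196 CPM. The class values by mouse were looked at after the call and were not tested.

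**Figure D5:**
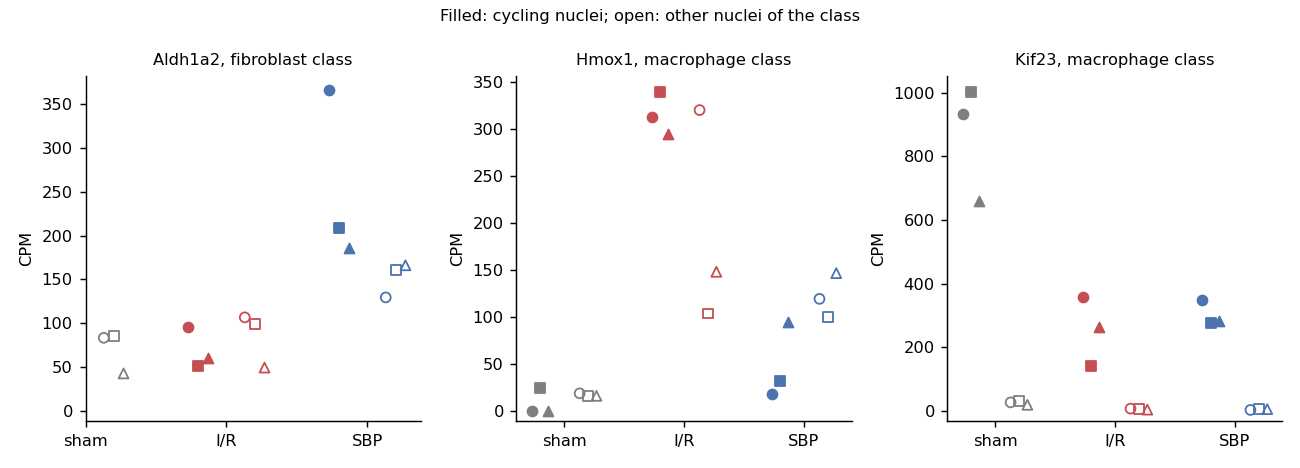
Level (CPM of the summed UMIs, scaled by the total) of Aldh1a2 in the fibroblast class and of Hmox1 and Kif23 in the macrophage class, 1 point per mouse (circle, square and triangle for replicates 1, 2 and 3), filled for cycling and open for other nuclei, without cycling fibroblast nuclei of sham. Cycling macrophage nuclei have Kif23 at 661 to 1004 CPM in sham and 142 to 357 CPM in injured hearts, Hmox1 at 295 to 340 CPM in I/R and 18.3 to 94.7 CPM in SBP, and cycling fibroblast nuclei have Aldh1a2 at 50.8 to 95.8 CPM in I/R and 186 to 366 CPM in SBP.

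Between SBP and I/R, 1 of 7836 genes was called in cycling nuclei (0.0128%), and voom called the same gene. Unadjusted p values were under 0.05 for 363 genes. The gene was Aldh1a2 (chromosome 9, 71215789 to 71296243), which encodes the retinaldehyde dehydrogenase that makes retinoic acid. Its level was 51.4, 42.6 and 39.3 CPM in I/R, 217, 172 and 235 CPM in SBP and 20.7 CPM in the sham sum, so that all SBP hearts lay far above all I/R hearts. The log2 difference was 2.20 (SE 0.248, limma adjusted p = 0.0108, voom 2.13 with adjusted p = 0.00588). The call was lost without nuclei of 2 or more lineages (2.02, limma adjusted p = 0.171), without I/R replicate 2, I/R replicate 3, SBP replicate 2 or SBP replicate 3 (2.18, 2.11, 2.33 and 2.12, limma adjusted p from 0.0863 to 0.146), and with all 9 hearts at 10 nuclei (2.21, limma adjusted p = 1.00), while the direction and size were kept.

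Aldh1a2 was read again within fibroblast nuclei. In cycling nuclei of the fibroblast class it was, on CPM scaled by the total, at 95.8, 50.8 and 60.4 CPM in I/R and 366, 209 and 186 CPM in SBP, without overlap, but it missed the threshold there (log2 difference 1.89, limma adjusted p = 0.174). Of 5647 genes in this class 0 were called (0%), with 245 at an unadjusted p under 0.05, and voom called 0 with 316. In the other fibroblast nuclei Aldh1a2 was at 83.4, 85.3 and 42.7 CPM in sham, 107, 99.3 and 49.4 CPM in I/R and 130, 161 and 166 CPM in SBP. The change from I/R to SBP was 0.98 larger on the log2 scale in cycling than in other fibroblast nuclei, which was not called (limma adjusted p = 0.966), and of 5603 genes tested for such a difference 0 were called (0%), with 254 at an unadjusted p under 0.05.

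The genes next in order of p between SBP and I/R were Hmox1, Col15a1, Ebf2 and Mical2, none of which passed the test. Hmox1 (chromosome 8, 75093618 to 75100593), the heme oxygenase that breaks down heme, was at 150, 74.1 and 65.4 CPM in cycling nuclei of I/R and 20.7, 8.34 and 7.59 CPM of SBP (log2 difference -2.92, limma adjusted p = 0.134). It was called without SBP replicate 1 (-3.34, limma adjusted p = 0.0485), with the replicate block (limma adjusted p = 0.0186) and without a filter on low genes (limma adjusted p = 0.00688), and over the other alternatives, voom included, the adjusted p was 0.0844 to 1.00. Cycling nuclei of the macrophage class had 313, 340 and 295 CPM in I/R and 18.3, 31.9 and 94.7 CPM in SBP, the latter on 1, 3 and 1 UMIs. Other macrophage nuclei had 320, 104 and 148 CPM in I/R and 119, 100 and 147 CPM in SBP, where the groups overlapped. The basement membrane collagen Col15a1 differed by 1.24, Ebf2, a transcription factor of mesenchymal precursors, by 0.86, and Mical2, an actin-oxidizing enzyme, by 0.90 (limma adjusted p = 0.865, 0.977 and 0.977). In macrophage class sums of at least 10 nuclei, the only ones that could be fitted, 0 of 1677 genes were called between SBP and I/R, with 50 at an unadjusted p under 0.05.

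No cell cycle gene was called between SBP and I/R. Of 29 spindle genes in cycling nuclei 25 had a negative log2 difference (median -0.17), as had 17 of 26 centromere genes (-0.17), while 23 of 35 replication genes had a positive one (median 0.05), against a median of -0.01 over all 7836 genes. In the fibroblast class 25 of 28 spindle genes were negative (median -0.40), as were 9 of 9 APC/C genes (-0.45), against 2796 of 5647 genes in all. These members share nuclei and are not independent. In the sums of all cycling nuclei 4 of 4 macrophage markers (median -1.01) and 7 of 7 resident macrophage genes (-1.17) were also negative. None of them was called, and 6 of 6 antigen presentation genes were positive (0.38). Mrc1 is in both macrophage lists, and the markers also assigned the lineage.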

How the data were processed

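Nuclei of 9 mouse hearts were profiled on a droplet platform. Per the labels' processing notes the authors used Cell Ranger 4.0, STAR, Seurat 3.2.0 and GRCm38, while the methods name other releases. The authors deposited, for each sample, natural log values, ln(1 + 10000 × UMI / total UMI of the nucleus), with features and barcodes. Whole UMIs were recovered from these values (at least 99.9994% lay within 0.1 of a whole number). No nucleus was removed, and the lowest number of genes per nucleus was 405. The cycling nuclei and all gene lists were chosen with earlier results of these data known, so no list is independent evidence of its direction. Of the fibroblast injury list, 1 gene is not reported here and is left out of its counts.

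Cycling nuclei needed at least 3 of 6 genes, and a lineage at least 2 of its markers. Shares were compared over mice with limma on log2((nuclei + 0.5) / denominator) over 14 shares, beside exact permutation tests. For genes, recovered UMIs were summed per mouse over at least 20 nuclei, scaled by the trimmed mean of M values, and fitted with limma 3.58.1 (trend, robust, R 4.3.3) on log2(CPM + 1). A fold change on this scale understates changes of low genes. Genes were kept with 15 UMIs in all and, in 3 or more samples, a CPM that equals 10 UMIs of the median library, and Benjamini-Hochberg adjustment ran over all genes of a fit. A count model was not used because the deposited unit is a log value, though the study names DESeq2, and voom on the recovered UMIs was the alternative. Only 1 sham sum entered the gene fits. Named genes were the rule genes, the lineage markers, up to 4 called members per cycle list, the 6 largest rises and falls per fit with groups that did not overlap (or the 4 of smallest p), the 20 largest ratios of cycling over other nuclei, and state list members. Wilson intervals cover counting only, since nuclei of 1 mouse are not replicates. Promoters were read from RefSeq (GRCm38.p6). Alternatives were thinning to 1000 UMIs, at least 2 or 4 rule genes, leaving out nuclei of 2 or more lineages, other pseudocounts, filters and scaling, a replicate block, leaving out each mouse, and, chosen after seeing the data, at least 10 nuclei per sample and only nuclei with fewer than 2 macrophage markers. Scripts ran in Python 3.11.15 with numpy 2.4.6, scipy 1.17.1 and pandas 2.3.3, and figures were drawn with matplotlib 3.10.9.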

Additional observations from a re-analysis of the deposited data

Results flagged for a closer look

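The change of the cycling share within a lineage differed between the lineages tested, by a test of the difference itself. After I/R against sham, the log2 change in fibroblast nuclei exceeded that in macrophage nuclei by 4.49, that in endothelial nuclei by 3.04 and that in dendritic nuclei by 4.11, and the change in macrophage less endothelial nuclei was -1.45 (limma adjusted p = 0.0423). After SBP against sham the same differences were 4.51, 2.99, 4.39 and -1.51 (limma adjusted p = 0.000125, 0.00285, 0.00151 and 0.0343). The difference of macrophage and endothelial nuclei rested on nuclei of 2 or more lineages, without which it was -0.34 (limma adjusted p = 0.752) for I/R and -0.52 (limma adjusted p = 0.860) for SBP, and it missed the threshold without any 1 mouse except sham replicate 3. Both contrasts share the 3 sham hearts, whose nuclei with fibroblast markers held 6 cycling nuclei in all. Groups did not overlap in any of these 8 differences (3 against 3 mice, exact permutation p = 0.1, the smallest possible).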

How the results depend on the processing

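The rise of the cycling share within fibroblast nuclei kept its direction and stayed past the threshold under every alternative run, for I/R and for SBP against sham. After thinning to 1000 UMIs the share of all nuclei missed the threshold, at 2.08 (I/R against sham) and 1.36 (SBP against sham), and with at least 4 rule genes the latter was 2.02. Within endothelial nuclei the difference of I/R over sham missed it with at least 2 (2.14) or 4 rule genes (2.22), without nuclei of 2 or more lineages (0.78), thinned (0.050) and with only the 6 samples compared (1.98). Of values that were not called, signs turned as follows. As a share of all nuclei, endothelial cycling nuclei had -0.19 (I/R against sham, thinned), 0.19 (SBP against I/R, at least 4 genes), 0.14 and -0.057 (SBP against I/R and against sham, thinned), and dendritic ones -0.81 and -0.64 (I/R against sham, without nuclei of 2 or more lineages and thinned) and 0.44 and 0.35 (SBP against I/R, the same settings). Within lineages, dendritic nuclei had 0.25 and 0.016 (SBP against I/R, the same settings), macrophage nuclei -0.0742, -0.11 and -0.0697 (SBP against sham, at least 2 genes, without nuclei of 2 or more lineages, thinned) and endothelial nuclei -0.061 (SBP against sham, thinned). The excess of fibroblast over endothelial change missed the threshold at 2.01 (SBP against sham, at least 4 genes) and that over dendritic change at 2.51 (thinned). Thinning leaves fewer cycling nuclei, and other causes were not tested.

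Leaving out each mouse in turn gave, for all nuclei, 2.19 to 3.21 (I/R against sham), -0.97 to 0.017 (SBP against I/R) and 1.88 to 2.71 (SBP against sham), the last missing the threshold without sham replicate 1, sham replicate 3, I/R replicate 2, SBP replicate 1 or SBP replicate 2. Within lineages the ranges were, for I/R against sham, 1.59 to 2.50 (endothelial) and -0.016 to 1.04 (macrophage), for SBP against I/R, -0.80 to 0.014 (fibroblast), -0.81 to 0.13 (macrophage), -0.63 to 0.046 (endothelial) and -1.05 to 0.085 (dendritic), and for SBP against sham, -0.39 to 0.62 (macrophage), 1.29 to 2.16 (endothelial) and -0.15 to 0.99 (dendritic). As shares of all nuclei they were, for I/R against sham, 1.29 to 2.26 (endothelial) and -0.84 to 0.59 (dendritic), for SBP against I/R, -0.54 to 0.21 (endothelial) and -1.31 to 0.73 (dendritic), and for SBP against sham, 1.15 to 2.14 (endothelial) and -1.30 to 0.74 (dendritic). Without sham replicate 2, endothelial values passed the threshold that they missed with all mice. As shares of all nuclei these were 2.26 for I/R (limma adjusted p = 0.0104) and 2.14 for SBP (limma adjusted p = 0.0148) against sham. Within the lineage it was 2.16 for SBP against sham (limma adjusted p = 0.0148). Genes called between SBP and I/R were 0 to 2 in cycling nuclei, 0 to 1 in the fibroblast class and 0 to 1 for the difference from other fibroblast nuclei.

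Genes called between I/R and sham were 24 with voom, 2833 without a filter and 744 with 10 nuclei per sample, between SBP and sham 97 with voom and 1061 with 10 nuclei, between SBP and I/R 2 without a filter, 0 without nuclei of 2 or more lineages and 0 with 10 nuclei, and in the fibroblast class 10 without a filter. Cenpe turned to 0.17 with 10 nuclei and Kif11 to 0.0022 without a filter (I/R against sham). Without macrophage-marker nuclei the share of all nuclei was 3.63 higher in I/R (limma adjusted p = 0.00101). With the replicate block, 1722, 2 and 1943 genes were called (I/R against sham, SBP against I/R, SBP against sham), and the share of I/R over sham kept 2.71 (limma adjusted p = 0.00891). Same-numbered I/R and SBP samples correlated at 0.0634, -0.121 and 0.0926, so the numbers were not taken to pair mice, and not every sample correlated best with its own number.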
